A study of Homo sapiens with 18 samples.

Results

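RNA for 54 genes of DNA replication was examined in MDA-MB-231 cells, a mesenchymal triple negative breast cancer line. These genes build the origin recognition complex, load, restrain and start the MCM helicase, and form the polymerases, the sliding clamp and its loader and the other proteins that work at the fork. They were chosen by name, and each of the 54 symbols matched a row of the count table, which lists 57448 genes. All 54 reached 1 CPM, a count scaled to the size of its library, in at least 3 of the 18 libraries, the filter that left 15587 genes for testing. The genes lie on 20 chromosomes, with 5 of them on chromosome 11 and 5 on chromosome 7, and they are described below by 12 roles.

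Total RNA was sequenced from 6 groups of 3 libraries each. WT was the parental line without a vector. KO1 and KO2 were GPS2 knockout lines made with lentiviral Cas9 and different sets of sgRNA against exons 2 and 6, selected with puromycin and kept as mixed pools rather than clones. The myrAKT cells carried myristoylated, constitutively active AKT1 delivered by retrovirus. KO1+MK and KO2+MK were the knockout lines treated with 10 µM MK2206, an allosteric AKT inhibitor, for 4 h. No treated WT or myrAKT cells were analysed here, WT carried no control vector, and the sources used here do not state whether untreated cells received vehicle. All groups were grown in the same serum-containing medium. Nothing states that the 3 libraries of a group came from separate cultures, so p-values measure only the spread between these samples, which may be technical.

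Before a cell enters S phase, the origin recognition complex, CDC6 and CDT1 load rings made of MCM2 to MCM7 onto DNA, which is called licensing, and geminin (GMNN) binds CDT1 to stop loading once replication is under way. CDC45 and the GINS complex then turn each ring into an active helicase, primase and polymerase alpha lay down primers, and polymerases epsilon and delta copy the leading and lagging strands on the PCNA clamp. Many of these genes are transcribed in late G1 and S phase under E2F transcription factors, and in bulk RNA a larger share of cells in S phase and more RNA per cell cannot be told apart.

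GPS2 RNA was not lowered in the libraries labelled as knockouts: it was 4.57 ± 0.278 CPM (SD, n = 3) in WT, 4.50 ± 0.0364 CPM in KO1 and 6.04 ± 0.123 CPM in KO2. Gene counts do not show whether a transcript was edited, and 44.7% of the bases in GPS2 exons are shared with another gene on the same strand. The authors report that the knockout was effective by western blot and genomic PCR, which are not part of these data. Over both lines the GPS2 log2 fold change against WT was 0.19 (adjusted p = 0.246 by edgeR). AKT1 RNA was at 134 to 136 CPM in the WT libraries and 218 to 242 CPM in myrAKT. VIM, CD44, EGFR and AXL were abundant in every group, between 415 and 1755 CPM as group means. ESR1 was near 1 CPM, and PGR and CDH1 did not pass the filter. ERBB2 was present at 81.2 to 91.6 CPM, and EPCAM was at 11.8 to 12.3 CPM in WT and 3.16 to 3.27 CPM in myrAKT. The MK2206-treated libraries held 23419198 to 29939536 counted reads and the untreated ones 30287210 to 39319910. Among the replication genes the lowest count in any library was 102, for POLD4, and the highest was 13544, for MCM3.

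Levels were first compared between genes in WT, as CPM per kilobase of the canonical transcript. PCNA, the sliding clamp that tethers polymerases to DNA, was highest at 122 ± 1.39 (SD, n = 3), followed by MCM7 at 100.1 ± 0.963 and MCM3 at 84.6 ± 1.59. The other MCM subunits were lower, at 41.0 ± 1.29 for MCM4, 40.1 ± 0.900 for MCM2, 26.7 ± 0.653 for MCM5 and 26.4 ± 0.189 for MCM6. The 6 MCM subunits act in 1 ring but did not have equal RNA levels, and neither MCM4 and MCM2 nor MCM5 and MCM6 differed beyond their SDs. When length was taken as the union of all annotated exons, MCM3 (71.2) stood above MCM7 (49.8), MCM2 (29.2) above MCM6 (23.9), and MCM4 (16.9) and MCM5 (12.7) were lowest, so the order of the subunits depends on the transcript assumed.

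At the low end were ORC1, the ATPase subunit of the origin recognition complex that is regulated through the cell cycle, at 4.49 ± 0.0896 CPM per kilobase, GINS3 at 4.54 ± 0.372 and ORC4 at 5.19 ± 0.0833. ORC1 and GINS3 did not differ beyond their SDs. The order at this end also depends on the transcript assumed. ORC1 has 3121 bases by either length, whereas RNASEH2B has 1513 canonical bases and 26222 over the union of its exons. The other GINS subunits were also in the lower part of the order, with GINS4 at 6.76 ± 0.274 and GINS2 at 7.04 ± 0.305, apart from GINS1 at 15.6 ± 0.503. POLD4, the small accessory subunit of polymerase delta, was at 5.44 ± 0.541 while another accessory subunit, POLD2, was at 69.3 ± 1.59. WT had the lowest mean of the 4 untreated groups for 44 of the 54 genes.

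**Figure D1:**
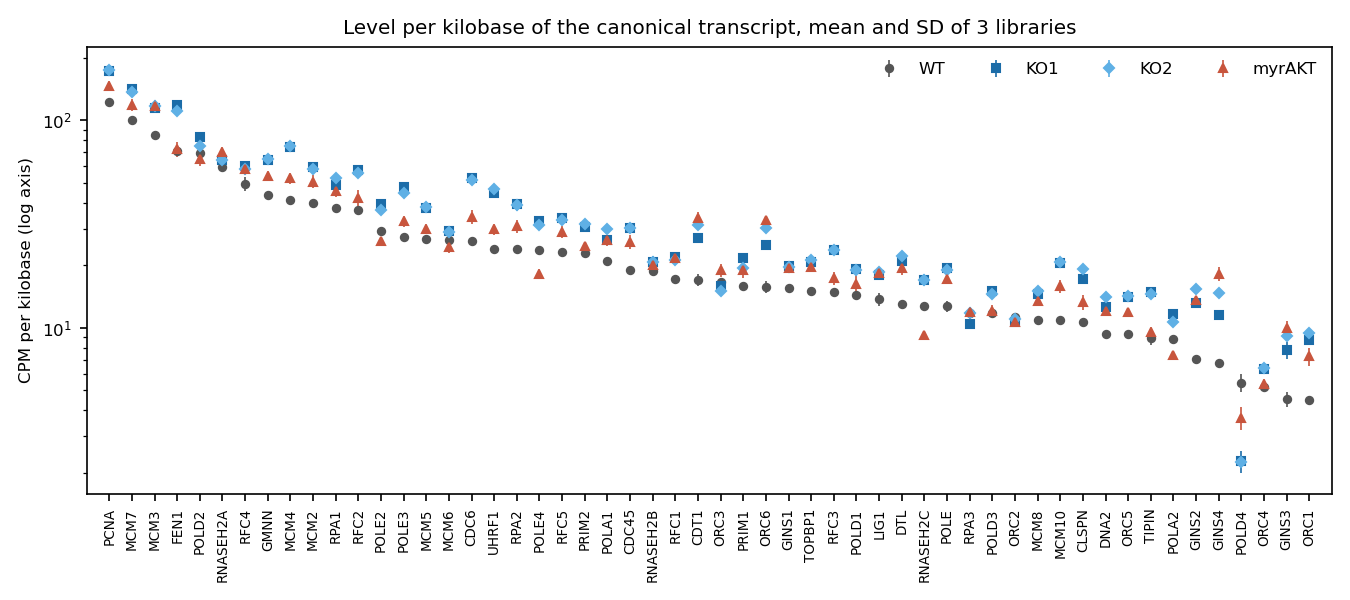
Level of each of the 54 replication genes in the 4 untreated groups, in CPM per kilobase of the canonical transcript on a log axis, as the mean (points) and SD (bars) of 3 libraries, ordered by the WT level. PCNA (122) and MCM7 (100.1) lead in WT and ORC1 (4.49) is lowest; POLD4 is the gene for which the KO1 and KO2 points lie farthest below WT.

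The first comparison asked how replication genes differ between GPS2 knockout and parental cells. Of the 54 genes, 45 were higher and 1 was lower in the 6 KO libraries than in the 3 WT libraries at an adjusted p of at most 0.001 (edgeR's quasi-likelihood test, Benjamini-Hochberg over all 15587 genes), where 15.5% of all genes tested were higher and 16.6% lower, 32.1% in all. The median log2 fold change was 0.47, a 1.39-fold difference, against -0.003 over all genes tested. With a fold change of at least 1.5 as well, 19 were higher and 1 was lower (12.7% of all genes passed this in either direction). For 49 genes the lowest KO value exceeded the highest WT value and for 1 gene the order was reversed, which held for 29.1% and 26.8% of all genes. Genes of every role rose, in both lines: 47 were higher and 1 lower in KO1 (20.5% and 21.3% of all genes, 41.7% together), and 46 were higher and 1 lower in KO2 (20.8% and 22.2%, 43.1% together). A fold change of 1.5 was reached by 21 of the genes called in KO1 (13.9% of all genes) and 22 in KO2 (16.7%). In each line 49 genes lay wholly above WT and 2 wholly below, against 35.8% and 33.4% of all genes in KO1 and 36.1% and 34.2% in KO2. Both lines were compared with the same WT libraries, so they are not independent on that side.

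**Figure D2:**
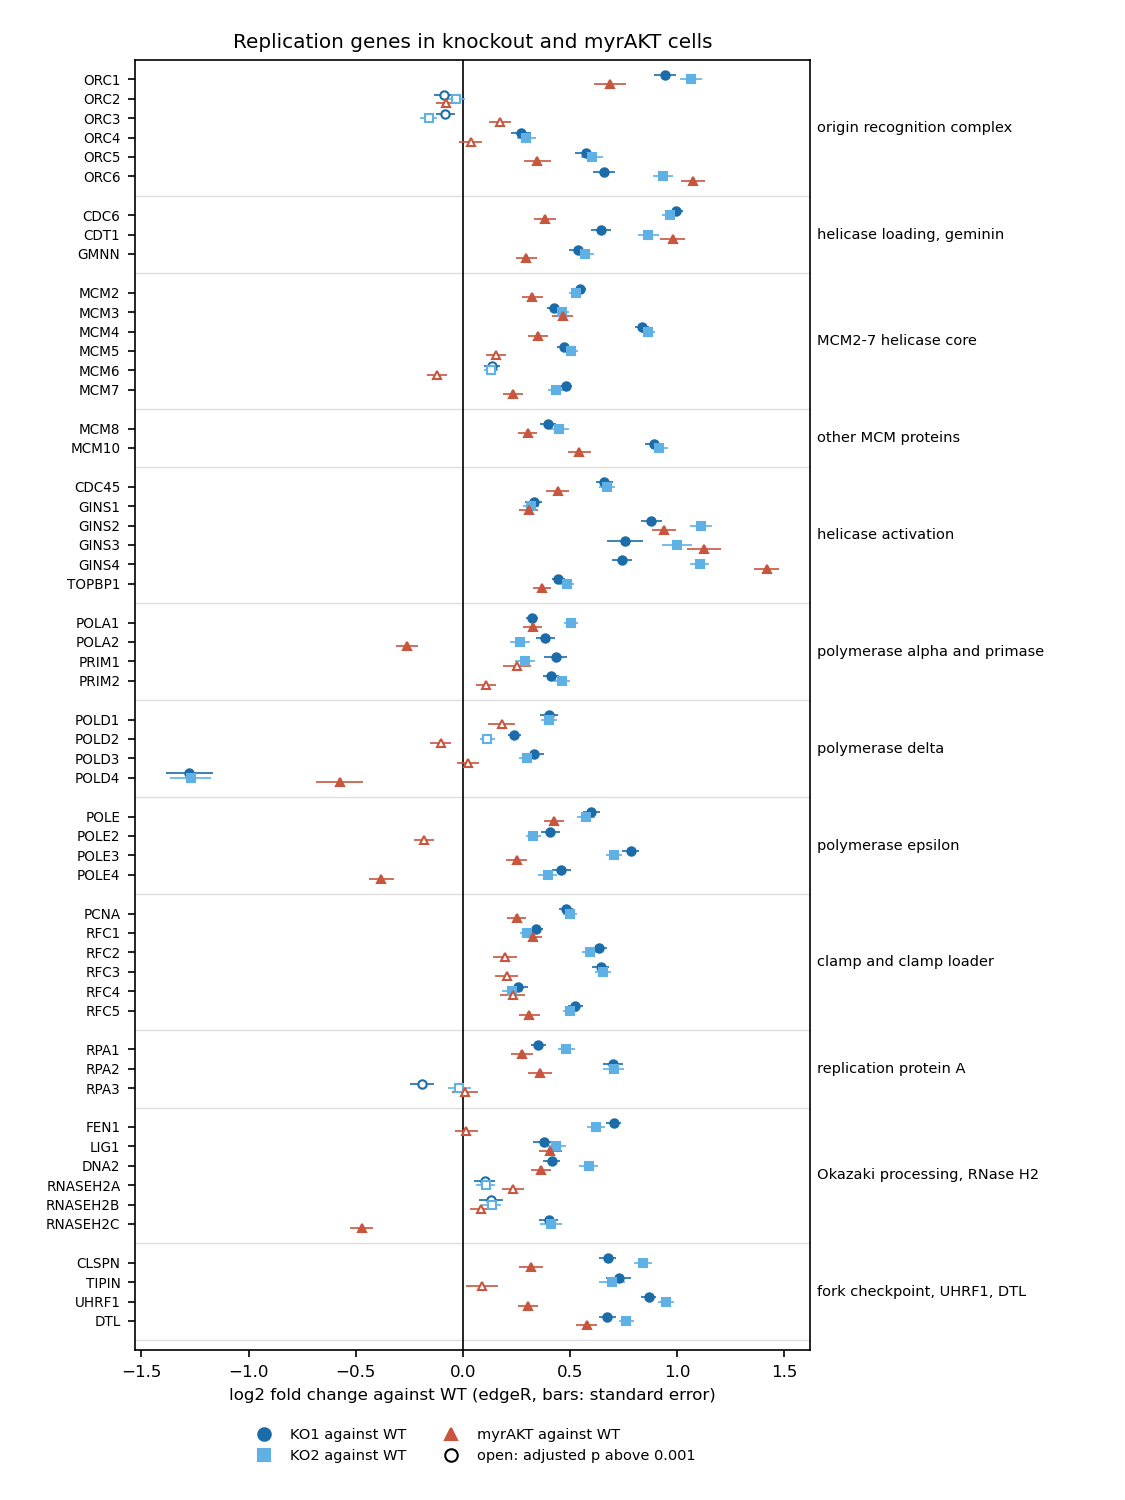
Log2 fold change of the 54 replication genes against WT in KO1 (circles), KO2 (squares) and myrAKT (triangles), grouped by role, with bars for the standard error of the edgeR fit; open symbols did not reach an adjusted p of 0.001. Most KO1 and KO2 symbols lie to the right of 0, POLD4 lies far to the left in both lines (-1.28 and -1.27), and GINS4 in myrAKT lies farthest to the right (1.42).

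Origin recognition and helicase loading genes held 2 of the 3 largest rises. ORC1 was at 14.2, 14.1 and 13.7 CPM in the WT libraries, 27.2, 27.7 and 27.1 CPM in KO1 and 30.6, 29.0 and 28.7 CPM in KO2. No KO library came near the WT range, and the log2 fold change was 1.00 (standard error, SE, 0.052, with an adjusted p of 1.2e-07 by edgeR). CDC6, the ATPase that recruits the MCM ring to the origin, was at 116, 123 and 119 CPM in WT, 236, 238 and 249 CPM in KO1 and 247, 227 and 229 CPM in KO2. The groups again did not overlap, with a log2 fold change of 0.98 (SE 0.040, adjusted p = 4.45e-08 by edgeR). CDT1, the partner of CDC6 in loading, averaged 45.3 ± 3.08 CPM in WT, 71.9 ± 0.576 CPM in KO1 and 83.1 ± 1.26 CPM in KO2, a log2 fold change of 0.75 (adjusted p = 4.3e-06). Its inhibitor geminin also rose, from 55.1 ± 2.28 CPM in WT to 80.9 ± 1.43 CPM in KO1 and 82.2 ± 2.20 CPM in KO2, by 0.55 on the log2 scale (adjusted p = 5.32e-07). The inhibitor therefore rose together with the loaders.

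The other origin recognition subunits did not move as a unit. ORC6 rose by 0.80, ORC5 by 0.58 and ORC4 by 0.28 on the log2 scale, while ORC2 (-0.07, SE 0.040, adjusted p = 0.164) and ORC3 (-0.13, SE 0.045, adjusted p = 0.0306) did not pass the test. ORC1 is known as the subunit whose amount changes through the cell cycle, and ORC2, ORC3, ORC4 and ORC5 belong to the stable core of the complex.

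Of the 6 subunits of the MCM ring, 5 rose and MCM6 did not pass the test. MCM4 rose most, from 167 ± 5.24 CPM in WT to 302 ± 6.39 CPM in KO1 and 305 ± 5.61 CPM in KO2, a log2 fold change of 0.84 (SE 0.033, adjusted p = 3.2e-08 by edgeR). MCM2 rose by 0.53, MCM5 by 0.48, MCM7 by 0.45 and MCM3 by 0.44. MCM6 was at 98.8, 99.8 and 98.4 CPM in WT, 113, 113 and 104 CPM in KO1 and 109, 107 and 110 CPM in KO2. All 6 KO libraries were above WT, but by only 0.13 on the log2 scale (SE 0.034, adjusted p = 0.00728). With a standard error of this size MCM6 was measured as precisely as its partners, and its difference was the smallest of the 6. The MCM proteins outside the ring rose too, MCM10, which helps start the helicase, by 0.90 and MCM8, which acts in recombination, by 0.42.

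All 6 helicase activation genes rose. GINS2 was at 17.9, 18.2 and 19.4 CPM in WT, 35.4, 34.1 and 34.1 CPM in KO1 and 40.7, 40.7 and 39.2 CPM in KO2. It was above WT in 6 of 6 KO libraries and higher in KO2 than in KO1, with a log2 fold change for both lines of 0.99 (SE 0.073, adjusted p = 8.06e-07 by edgeR). GINS4 (0.93) and GINS3 (0.88) rose by similar amounts, and GINS1, the most abundant of the 4, rose least (0.32). CDC45, which completes the active helicase with MCM and GINS, rose by 0.66, and TOPBP1, a scaffold needed to recruit them and to activate the ATR checkpoint, by 0.46.

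The median log2 fold change was 0.38 for polymerase alpha and primase, 0.24 for polymerase delta and 0.50 for polymerase epsilon. All 4 genes of polymerase alpha and primase were higher, by 0.32 to 0.43 on the log2 scale. POLA2 and PRIM1 lost the call when some WT libraries were left out. POLA2 lost it without WT replicate 2 or 3, with edgeR adjusted p of 0.0014 and 0.0015. PRIM1 lost it without any of the 3, with edgeR adjusted p between 0.0011 and 0.0019. Both calls were also lost with a replicate block. All 4 genes of polymerase epsilon rose, from 0.36 for POLE2 to 0.74 for POLE3, a histone-fold subunit, and 0.58 for the catalytic subunit POLE. In polymerase delta, POLD1, the catalytic subunit, rose by 0.39 and POLD3 by 0.31, and POLD2 (0.17, adjusted p = 0.0092) did not pass with both lines pooled. POLD2 was called higher in KO1 (0.24, adjusted p = 7.54e-06), but not in KO2 (0.11, adjusted p = 0.0142), and for both lines with the line as a term.

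POLD4 went the other way and was the only replication gene that fell. It was at 10.2, 8.41 and 9.05 CPM in WT, 3.40, 4.36 and 3.79 CPM in KO1 and 3.87, 3.77 and 3.87 CPM in KO2. Every KO library was well under the lowest WT library, and POLD4 fell by 1.28 on the log2 scale (SE 0.091, adjusted p = 6.36e-07 by edgeR), the largest change of any replication gene in this comparison. POLD4 had 306 to 348 counts in each WT library and 129 to 161 in each KO library. POLD4 lies on the minus strand of chromosome 11 at 67350772 to 67356972 (hg38), and 21.3% of the bases in its exons are shared with ENSG00000256514 on the same strand, which held a mean of 0.278 counts per library. POLD4 is known as the subunit of polymerase delta that is degraded during S phase and after DNA damage.

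Clamp, clamp loader and single-strand binding genes mostly rose by intermediate amounts. PCNA went from 156 ± 1.77 CPM in WT to 221 ± 8.16 CPM in KO1 and 222 ± 7.04 CPM in KO2, a log2 fold change of 0.48 (adjusted p = 6.43e-07). Of the 5 subunits of replication factor C, the loader that opens PCNA, RFC3 (0.64), RFC2 (0.61), RFC5 (0.51) and RFC1 (0.31) rose, and RFC4 (0.24, adjusted p = 0.00149) did not pass with both lines pooled. RFC4 was called higher in KO1 (0.26, adjusted p = 0.000289) and in KO2 (0.23, adjusted p = 0.000783) and, for both lines, with the line as a term (adjusted p = 5.6e-05) and by DESeq2 (adjusted p = 6.38e-06). RPA2 (0.70) and RPA1 (0.41), which coat single-stranded DNA, rose, and RPA3, the smallest subunit, did not pass the test (-0.11, SE 0.063, adjusted p = 0.157).

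Among the enzymes that mature Okazaki fragments, FEN1, the flap nuclease, rose by 0.66, DNA2 by 0.50 and the ligase LIG1 by 0.40. The 3 subunits of RNase H2, which removes RNA primers and ribonucleotides from DNA, split: RNASEH2C rose by 0.40 (adjusted p = 2.6e-05), while RNASEH2A (0.10, adjusted p = 0.102) and RNASEH2B (0.13, adjusted p = 0.038) did not pass. RNASEH2C averaged 33.5 ± 1.51 CPM in WT, 44.8 ± 0.881 CPM in KO1 and 44.8 ± 2.94 CPM in KO2. Of the bases in its exons, 28.9% are shared with KAT5 on the other strand, which held a mean of 1006 counts per library beside 1272 for RNASEH2C, and the sources used here do not say whether reads were counted by strand. RNASEH2A shares 53.3% of its exon bases with THSD8 on the same strand.

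The fork checkpoint genes and the fork-coupled ubiquitin ligase genes all rose by at least 1.5-fold. UHRF1, which brings DNA methylation maintenance to newly made DNA, rose by 0.90, CLSPN, which passes the ATR signal to CHK1, by 0.76, TIPIN, a fork protection factor, by 0.71, and DTL, the adaptor that marks CDT1 for degradation on PCNA, by 0.71.

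**Figure D3:**
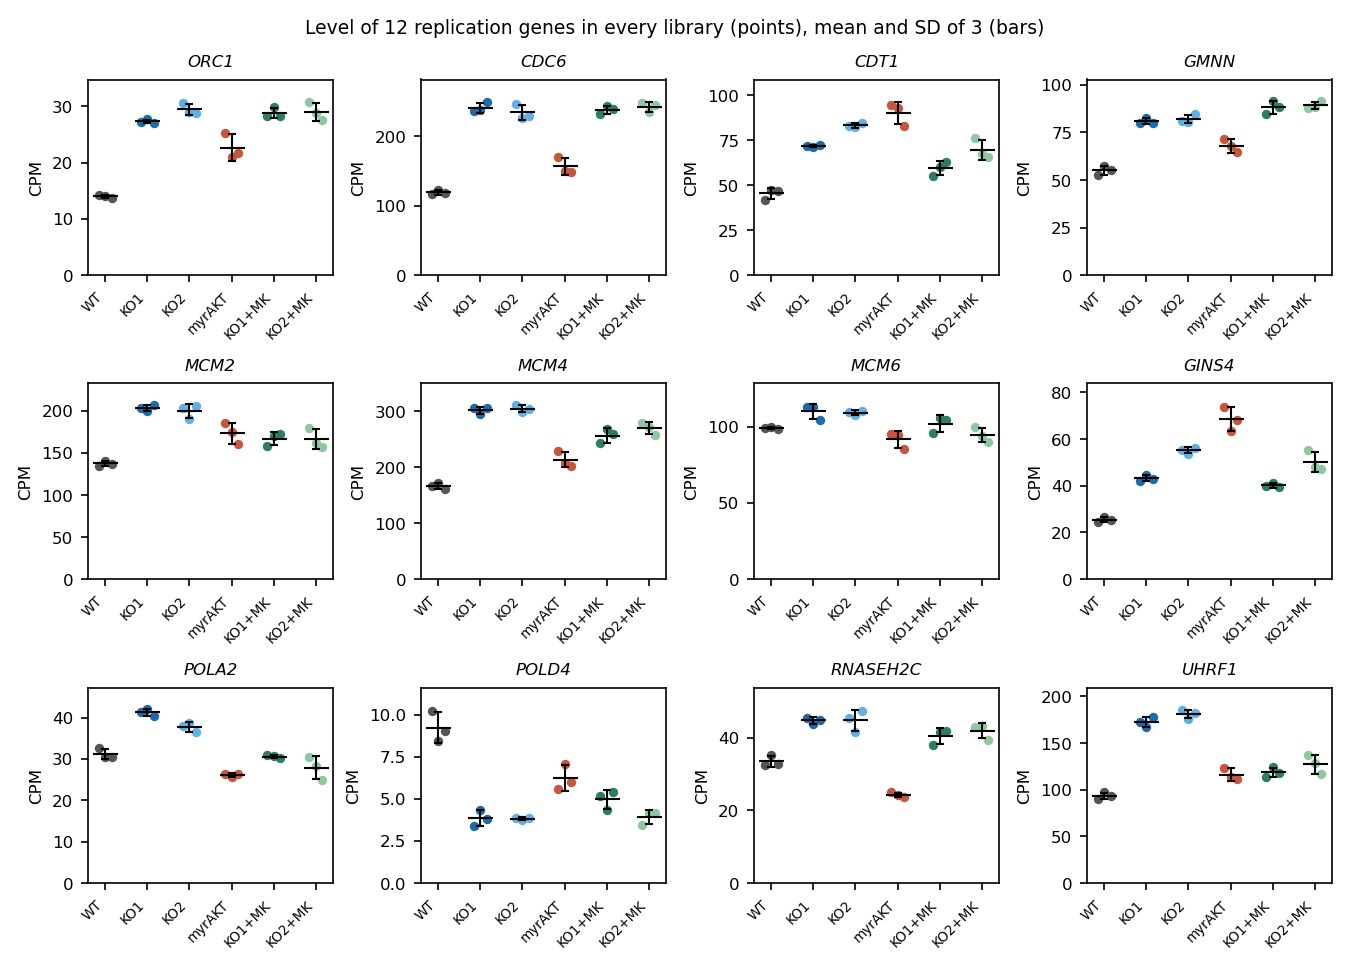
CPM of 12 replication genes in each of the 18 libraries (points) by group, with the mean and SD of 3 libraries (bars); every axis starts at 0. ORC1 and CDC6 stay at the KO level under MK2206, UHRF1 and POLA2 drop toward or below WT, MCM6 is nearly flat, GINS4 is highest in myrAKT, and POLD4 is highest in WT.

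Promoter sequence was looked at because so many of these genes moved together. RefSeq windows (GRCh38.p14) from 250 bases before to 50 bases after each start were searched on both strands for the E2F letters in 4 forms, TTTGGCG or TTTCCCG or else TTTCGCG or finally TTTGCCG. Of the 54 genes 47 had a window, and 28 of these (59.6%) held at least 1 match, against 16.3% of 11024 tested genes and 10.4% of all 27305 genes with a window. The letters CCAAT were in 63.8% of the 47 and in 42.9% of tested genes. The letters TTTGAA, the core of the element found in genes of G2 and mitosis, were in 1 of the 47, POLE3, and in 13.9% of tested genes. Matches on opposite strands can overlap, and a match is a description of the letters only. MCM4, MCM5, GINS4, POLD3, RPA2, RPA3 and DNA2 had no window.

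The 100 bases before the start are printed for 6 genes chosen because they moved differently: the largest risers ORC1, GINS2 and CDC6, the loader CDT1, MCM6, whose difference in the knockouts was small, and POLE4, which rose in the knockouts and fell in myrAKT. E2F letters are in capitals, each sequence is written along the strand of its gene, and no exon in GENCODE release 44 reaches into any of the 6.
ORC1, chr1:52404424-52404523, minus strand: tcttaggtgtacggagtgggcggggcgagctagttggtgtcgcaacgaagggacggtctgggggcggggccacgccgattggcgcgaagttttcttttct
CDC6, chr17:40287779-40287878, plus strand: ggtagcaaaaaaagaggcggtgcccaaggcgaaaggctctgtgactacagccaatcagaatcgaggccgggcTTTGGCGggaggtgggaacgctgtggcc
CDT1, chr16:88803689-88803788, plus strand: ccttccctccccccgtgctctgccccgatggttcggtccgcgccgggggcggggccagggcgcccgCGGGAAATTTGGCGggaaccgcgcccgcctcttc
GINS2, chr16:85688955-85689054, minus strand: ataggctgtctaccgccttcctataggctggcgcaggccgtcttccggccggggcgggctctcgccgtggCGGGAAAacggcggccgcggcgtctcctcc
MCM6, chr2:135876444-135876543, minus strand: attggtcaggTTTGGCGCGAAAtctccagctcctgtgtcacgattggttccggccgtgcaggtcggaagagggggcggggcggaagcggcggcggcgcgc
POLE4, chr2:74958543-74958642, plus strand: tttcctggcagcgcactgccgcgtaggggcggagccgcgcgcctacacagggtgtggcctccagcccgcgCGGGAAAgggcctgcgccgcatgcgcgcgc
CDC6 held TTTGGCG 28 bases before its start and again after the start, and CDT1 held 2 adjoining matches on opposite strands at 34 and 27 bases. MCM6, with the smallest difference of the ring, held 2 overlapping matches at 90 and 85 bases and another such pair farther out. ORC1, with the largest rise, had no match in its whole window.

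Among the 28 genes with the letters, 26 were higher and 0 lower in the knockouts, with a median log2 fold change of 0.51, where 15.5% of all genes tested were higher and 16.6% lower. Among the 19 genes without a match to these forms, ORC1 included, 13 were higher and 1, POLD4, was lower, with a median of 0.40. In myrAKT cells the counts were 21 higher and 2 lower of the 28, against 6 higher and 2 lower of the 19, where 12.7% of all genes tested were higher and 17.3% lower. After MK2206 in the knockouts 2 of the 28 were higher and 7 lower, and 1 of the 19 was higher and 5 lower, where 12.8% of all genes tested were higher and 8.75% lower. For the CCAAT box, 23 of the 30 genes with it and 16 of the 17 without it were higher in the knockouts, and 20 of the 30 and 7 of the 17 in myrAKT cells. Genes with and without either motif were not tested against each other.

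The knockout lines were also compared with each other. In KO1 against KO2 none of the 54 were higher in KO1 and 5 were lower (7.06% of all genes were higher and 5.54% lower, 12.6% in all). None of the 5 reached 1.5-fold, which 2.62% of all genes did. For 8 genes KO1 lay wholly above KO2 and for 12 wholly below, against 25.4% and 20.3% of all genes. GINS4 was at 42.2, 44.6 and 43.1 CPM in KO1 and 55.3, 53.8 and 56.3 CPM in KO2. The lines did not overlap, and the log2 difference was -0.36 (SE 0.039, adjusted p = 2e-06 by edgeR). ORC6 (-0.28), GINS2 (-0.23), CDT1 (-0.22) and POLA1 (-0.18) were the others. The count of genes was 2 when all 18 libraries shared a fit, where 5.94% of all genes were higher and 3.59% lower. It was 3 without KO1 replicate 1 (4.45% and 3%).

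The next comparison asked what activated AKT1 does to the same genes without a GPS2 knockout. In myrAKT cells 31 of the 54 were higher and 4 lower than in WT (12.7% and 17.3% of all genes, 30.0% together), with a median log2 fold change of 0.29 against 0.016 over all genes. A 1.5-fold difference was reached by 6 of the rises and 0 of the falls (13.8% of all genes in either direction). For 40 genes the myrAKT libraries were all above WT and for 7 all below, against 30.3% and 30.6% of all genes. By role, the genes that rose were 3 of 6 of origin recognition, 3 of 3 of loading, 4 of 6 of the MCM ring, 2 of 2 other MCM proteins, 6 of 6 of helicase activation, 1 of 4 of polymerase alpha and primase, 0 of 4 of polymerase delta, 2 of 4 of polymerase epsilon, 3 of 6 of the clamp and its loader, 2 of 3 of replication protein A, 2 of 6 of Okazaki fragment processing and RNase H2 and 3 of 4 of the fork checkpoint and ubiquitin ligases. The roles were not tested against each other. In polymerase epsilon the call of POLE3 (0.25, adjusted p = 0.000621) was lost in 5 of the 6 fits without 1 library, all but the fit without myrAKT replicate 2, with adjusted p up to 0.00584. Calls were lost in such fits also for MCM7 (5 of 6), GMNN, ORC5 and RPA1 (4 each), CLSPN (2) and RPA2 (1). Without a filter on low counts 23 of the 54 were higher and 4 lower, against 5.28% and 8.09% of 39158 genes. The genes whose rise was then not called by edgeR included GINS1 of helicase activation (adjusted p = 0.00111) and MCM8 of the other MCM proteins (adjusted p = 0.00104).

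The largest rises were in GINS and ORC6. GINS4 was at 24.5, 26.5 and 25.4 CPM in WT and 73.7, 63.5 and 68.1 CPM in myrAKT. The lowest myrAKT library was more than 2 times the highest WT library, and the log2 fold change was 1.42 (SE 0.059, adjusted p = 1.72e-10 by edgeR). GINS4 lies on chromosome 8 at 41529218 to 41545030 (hg38, plus strand), and 21.0% of the bases in its exons are shared with ENSG00000253174 on the other strand, which held a mean of 4.72 counts per library beside 1571 for GINS4. GINS3 was at 9.04, 10.5 and 10.4 CPM in WT and 23.3, 22.4 and 20.1 CPM in myrAKT, a log2 fold change of 1.12 (SE 0.079, adjusted p = 3.21e-08 by edgeR). ORC6 was at 27.3, 24.5 and 24.3 CPM in WT and 55.9, 53.4 and 51.5 CPM in myrAKT, a log2 fold change of 1.07 (SE 0.055, adjusted p = 1.29e-09 by edgeR). In neither gene did the groups overlap. CDT1 (0.98), GINS2 (0.94) and ORC1 (0.69) followed.

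The 4 genes that fell were accessory subunits. RNASEH2C was at 32.5, 35.2 and 32.7 CPM in WT and 24.96, 24.2 and 23.6 CPM in myrAKT, and fell by 0.47 on the log2 scale (SE 0.054, adjusted p = 4.67e-06 by edgeR). POLE4, a histone-fold partner of POLE3, was at 25.9, 25.8 and 25.7 CPM in WT and 19.7, 21.1 and 19.0 CPM in myrAKT, and fell by 0.38 (SE 0.057, adjusted p = 5.99e-05). POLD4 was at 5.57, 7.09 and 6.02 CPM in myrAKT, under all 3 WT libraries, and fell by 0.57 (SE 0.11, adjusted p = 0.000495). That call was lost with upper-quartile factors and library totals (adjusted p = 0.0017 in both) and without WT replicate 1 or 3 or myrAKT replicate 1 or 3, with adjusted p between 0.0014 and 0.0035. POLA2, the regulatory subunit of polymerase alpha, was at 32.5, 30.5 and 30.5 CPM in WT and 26.3, 25.7 and 26.4 CPM in myrAKT, and fell by 0.26 (SE 0.052, adjusted p = 0.000656). The POLA2 call was lost in each of the 6 fits that left out 1 library, with adjusted p between 0.00111 and 0.00349.

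The MCM ring was uneven in myrAKT as well. MCM3 rose by 0.47, MCM4 by 0.35, MCM2 by 0.33 and MCM7 by 0.23, while MCM5 (0.15, adjusted p = 0.0114) and MCM6 (-0.12, adjusted p = 0.0345) did not pass. The MCM7 call was lost without WT replicate 1, 2 or 3 and without myrAKT replicate 1 or 2 (adjusted p between 0.0033 and 0.0088). In group means MCM6 was 99.0 ± 0.708 CPM in WT and 91.5 ± 5.28 CPM in myrAKT. CDC6 rose from 119 ± 3.33 CPM to 157 ± 11.7 CPM (0.38, adjusted p = 1.96e-05), geminin to 68.0 ± 3.66 CPM (0.30, adjusted p = 0.00016) and PCNA to 187 ± 9.44 CPM (0.25, adjusted p = 0.000238). The PCNA call was lost without any of the WT libraries and without myrAKT replicate 1 or 2, and that of geminin (GMNN) without WT replicate 1 or 3 or myrAKT replicate 1 or 2, with adjusted p up to 0.0024. FEN1, which rose in the knockouts, was 0.02 in myrAKT (SE 0.055, adjusted p = 0.814).

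The knockouts were then set against myrAKT directly, since both had been compared with the same WT libraries. Of the 54 genes, 24 were higher in KO than in myrAKT and 2 were lower (19.1% and 16.7% of all genes, 35.8% together), and 7 of these reached 1.5-fold (16.2% of all genes). For 33 genes all KO libraries were above myrAKT and for 4 all below, against 30.6% and 26.0% of all genes. The largest differences were in genes that had fallen in myrAKT: RNASEH2C was higher by 0.87 (SE 0.046, adjusted p = 4.78e-08 by edgeR) and POLE4 by 0.80 (SE 0.050, adjusted p = 1.48e-07 by edgeR), with all KO libraries above all myrAKT libraries. FEN1 (0.64), TIPIN (0.61), UHRF1 (0.59), CDC6 (0.59) and POLA2 (0.58) came next among the genes higher in KO. POLD4 (-0.71, adjusted p = 7.96e-05) and ORC3 (-0.30, adjusted p = 0.00027) were lower in KO. ORC3 was at 50.7, 46.6 and 44.5 CPM in myrAKT against 36.3 to 41.4 CPM in the KO libraries. GINS4 (-0.49, adjusted p = 0.00122), ORC6 (-0.28, adjusted p = 0.00882), GINS3 (-0.25, adjusted p = 0.0273) and CDT1 (-0.23, adjusted p = 0.0126) had negative values that did not pass the threshold. None of the 6 helicase activation genes passed in this fit. With the line as a term, or with all 18 libraries in 1 fit, 30 genes were higher and 5 lower. Of all genes, 26.4% were higher and 24.1% lower with the line term, and 27.8% and 23.3% with all 18 libraries. The count of 26 genes was 16 without myrAKT replicate 2 and 17 without myrAKT replicate 3.

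The last question was how 4 h of AKT inhibition changed these genes in the knockouts. With both lines pooled, 14 of the 54 were lower and 3 higher in treated than in untreated libraries (8.75% and 12.8% of all genes, 21.5% together), with a median log2 fold change of -0.11 against -0.003 over all genes. None reached 1.5-fold, which 6.53% of all genes did. For 18 genes every treated library was below every untreated library and for 1 gene, PCNA, every treated library was above, against 13.4% and 14.0% of all genes. Adding the line as a term to the fit gave 23 lower and 4 higher, where 16.7% of all genes were lower and 19.9% higher. The split also moved with the scaling. RLE factors in edgeR gave 16 lower and 1 higher (9.58% and 12.1% of all genes). Upper-quartile factors gave 17 lower and 0 higher (11.6% and 10.9%), and DESeq2 gave 21 lower and 3 higher (13.8% and 15.8%). Leaving out 1 library gave counts between 10 and 18, with 10 without KO1 replicate 1 or 3 and 11 without KO1 replicate 2, KO1+MK replicate 3 or KO2+MK replicate 2 or 3.

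UHRF1 fell most. It was at 173, 168 and 178 CPM in KO1 and 114, 124 and 118 CPM in KO1+MK, and at 185, 176 and 182 CPM in KO2 and 137, 129 and 117 CPM in KO2+MK. Every treated library was under every untreated one, and the log2 fold change was -0.50 (SE 0.044, adjusted p = 6.89e-07 by edgeR). The UHRF1 mean of 119 ± 5.22 CPM in KO1+MK and 127 ± 10.3 CPM in KO2+MK stayed above the 93.5 ± 3.36 CPM of WT. POLA2 was at 41.3, 42.1 and 40.5 CPM in KO1 and 30.9, 30.6 and 30.2 CPM in KO1+MK, and at 37.9, 38.7 and 36.4 CPM in KO2 and 30.4, 28.3 and 24.9 CPM in KO2+MK. Its log2 fold change was -0.41 (SE 0.054, adjusted p = 2.78e-05 by edgeR), and the treated libraries overlapped WT. PRIM1, the catalytic subunit of primase, was at 29.4, 32.7 and 30.5 CPM in KO1 and 23.6, 26.2 and 23.3 CPM in KO1+MK, and at 27.4, 27.8 and 28.0 CPM in KO2 and 21.7, 19.5 and 19.3 CPM in KO2+MK. It fell by 0.38 (SE 0.072, adjusted p = 0.000645), a call lost in 8 of the 12 fits without 1 library, with adjusted p up to 0.00192.

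The other falls were smaller. TIPIN fell by 0.37 and RNASEH2A by 0.26, and in the MCM ring MCM3 and MCM2 fell by 0.25, MCM5 by 0.22 and MCM4 by 0.18, with MCM7 (-0.17, adjusted p = 0.00131) and MCM6 (-0.14, adjusted p = 0.01) short of the threshold in this fit. Both were called lower by DESeq2, with the line as a term and with all 18 libraries in 1 fit, and MCM7 also with RLE or upper-quartile factors. All 6 subunits of the ring had a negative log2 fold change in both lines. FEN1 (-0.24), ORC2 (-0.24), RFC3 (-0.21), RFC2 (-0.19) and MCM8 (-0.15) completed the list. Of these smaller falls, that of MCM8 was lost in 11 of the 12 fits without 1 library, that of MCM5 in 10, that of MCM4 in 7 and that of RFC2 in 3, and those of TIPIN, RNASEH2A, MCM3, MCM2, FEN1, ORC2 and RFC3 in none. In the pooled fit no helicase activation, polymerase delta, polymerase epsilon or replication protein A gene passed, but with the line as a term, or with all 18 libraries in 1 fit, POLE2, GINS2, POLD1 and POLD2 were called lower. By line, GINS2 and POLD1 (-0.25, adjusted p = 0.000417) were called lower in KO1 and POLE2 (-0.37, adjusted p = 1.17e-05) in KO2. CDC45 was called lower by DESeq2 (adjusted p = 0.000456) and with all 18 libraries in 1 fit.

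In the pooled fit the 3 genes with the largest rises in the knockouts were not called lower. CDC6 averaged 241 ± 7.29 and 234 ± 10.8 CPM in KO1 and KO2 and 239 ± 5.77 and 242 ± 6.83 CPM after treatment, a log2 fold change of 0.04 (SE 0.029, adjusted p = 0.308). For ORC1 the log2 fold change was 0.05 (SE 0.041, adjusted p = 0.36). Pooled over the lines, treated and untreated libraries overlapped for both genes. GINS2 was at -0.20 in the pooled fit (adjusted p = 0.0401), and in KO1 alone it fell by 0.23 (adjusted p = 0.000871). CDT1 went from 71.9 ± 0.576 to 59.3 ± 3.83 CPM in KO1 and from 83.1 ± 1.26 to 69.5 ± 5.68 CPM in KO2. In KO1 alone the fall of CDT1 passed the test (-0.25, SE 0.042, adjusted p = 0.000352), in KO2 alone it was just short (-0.24, SE 0.049, adjusted p = 0.00106), and in the pooled fit without a line term it was not called (adjusted p = 0.0116).

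The 3 genes called higher were PCNA, ORC4 and geminin. ORC6 had a larger log2 fold change (0.30, SE 0.10, adjusted p = 0.0275) that did not pass with both lines pooled, but it was called higher in KO2 (0.36, adjusted p = 9.04e-06) and, for both lines, with the line as a term and with all 18 libraries in 1 fit. PCNA was at 215, 230 and 218 CPM in KO1 and 232, 245 and 246 CPM in KO1+MK, and at 228, 214 and 225 CPM in KO2 and 245, 245 and 250 CPM in KO2+MK, a log2 fold change of 0.16 (SE 0.027, adjusted p = 0.000273). ORC4 was at 40.7, 43.6 and 40.2 CPM in KO1 and 46.5, 46.6 and 47.9 CPM in KO1+MK, and at 41.3, 43.2 and 41.2 CPM in KO2 and 43.4, 50.4 and 47.7 CPM in KO2+MK, a log2 fold change of 0.20 (SE 0.040, adjusted p = 0.00096). Geminin was at 80.2, 82.6 and 80.0 CPM in KO1 and 84.6, 91.4 and 88.4 CPM in KO1+MK, and at 81.3, 80.6 and 84.7 CPM in KO2 and 88.0, 88.7 and 91.5 CPM in KO2+MK, a log2 fold change of 0.14 (SE 0.027, adjusted p = 0.00058). PCNA did not overlap between treated and untreated libraries, whereas ORC4 and geminin each overlapped narrowly across lines. With upper-quartile factors none of the 3 calls held, and each was lost without some of the libraries (ORC4 and geminin in 10 of 12 such fits, PCNA in 4).

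**Figure D4:**
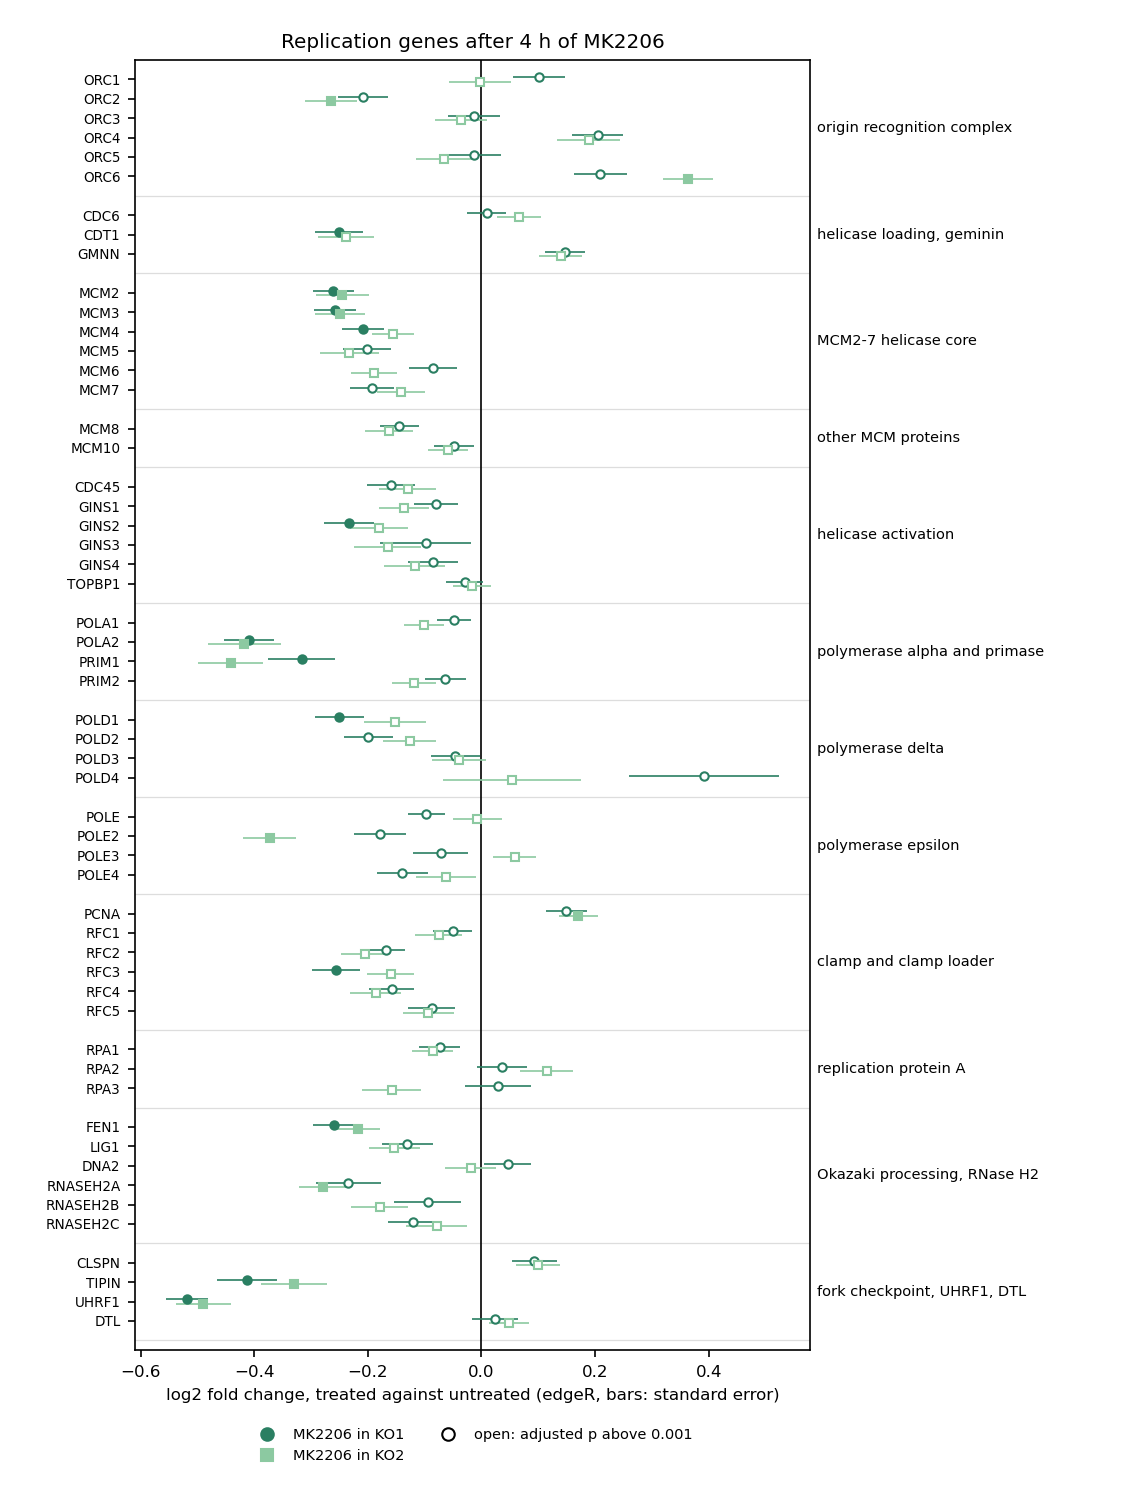
Log2 fold change of the 54 replication genes after 4 h of MK2206 in KO1 (circles) and KO2 (squares), grouped by role, with bars for the standard error of the edgeR fit; open symbols did not reach an adjusted p of 0.001. UHRF1 lies farthest to the left in both lines (-0.52 and -0.49), the MCM ring lies left of 0, and ORC6 in KO2 (0.36) is the largest called rise.

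By line, 12 genes were lower and 0 higher in KO1 (8.26% and 10.9% of all genes, 19.2% together) and 10 were lower and 2 higher in KO2 (8.78% and 13.1%, 21.9% together). None reached 1.5-fold in KO1 or KO2, against 5.01% and 7.06% of all genes. All treated libraries lay below all untreated ones for 34 genes in KO1 and 34 in KO2 (30.1% and 29.2% of all genes), and above them for 5 and 4 (25.4% and 26.2%). UHRF1, POLA2, PRIM1, TIPIN, MCM2, MCM3 and FEN1 were called lower in each line. ORC6 rose by 0.36 in KO2 (SE 0.044, adjusted p = 9.04e-06), from 48.9, 47.5 and 49.6 CPM to 59.6, 61.2 and 64.6 CPM, and its log2 fold change in KO1, 0.21, did not pass (adjusted p = 0.00249). The counts by line depend on single libraries: in KO1 they were 4 without KO1 replicate 1 or 3, 6 without KO1 replicate 2 and 19 without KO1+MK replicate 1, and in KO2 they were 6 without KO2 replicate 1 or 3, 5 without KO2+MK replicate 2 and 22 without KO2+MK replicate 1. The effect of MK2206 differed between the lines in 0 of the 54 genes by edgeR's interaction test (0.0128% of all genes passed) and in 0 by DESeq2, while 3 by edgeR and 2 by DESeq2 had an unadjusted p under 0.05. The lowest and highest estimates of that difference were -0.15 for ORC6 (SE 0.064) and 0.34 for POLD4 (SE 0.177).

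Treated knockout cells were also set against WT. Of the 54 genes, 36 were higher and 2 lower (16.0% and 16.1% of all genes, 32.0% together), with a median log2 fold change of 0.33, beside 0.47 for the untreated knockouts. A 1.5-fold difference was reached by 15 (15.0% of all genes), and for 41 genes all treated libraries were above WT and for 3 all below, against 27.9% and 27.1%. These comparisons share the WT libraries, so their values are given side by side only. ORC6 was 1.08, ORC1 1.04, CDC6 1.00 and CLSPN 0.84 above WT after treatment. POLD4 (-1.06, adjusted p = 2.14e-05) and ORC2 (-0.31, adjusted p = 4.59e-05) were lower than in WT. ORC2 was at 49.4, 46.2 and 48.6 CPM in WT and 37.8 to 40.7 CPM in the treated libraries, with no overlap. POLA2 (-0.10), PRIM1 (-0.03), MCM6 (-0.02) and RNASEH2B (-0.02) were near 0 and not called.

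Other genes of the pathway were counted from lists, with no test of the lists. Of all genes tested, 15.5% were higher and 16.6% lower in KO, 12.7% and 17.3% in myrAKT, and 12.8% and 8.75% after MK2206 in KO, and several of the counts that follow are near these shares. Of 36 further replication factors tested, such as the kinases that fire origins, 18 were higher and 1 lower in KO, 18 and 3 in myrAKT, and 4 and 6 after MK2206. Of 20 genes for E2F factors, pocket proteins and their partners, 12 were higher and 2 lower in KO, 9 and 1 in myrAKT, and 4 and 2 after MK2206. E2F1 itself was 66.1 ± 1.26 CPM in WT, 89.2 ± 2.17 CPM in KO1, 88.2 ± 1.96 CPM in KO2 and 85.6 ± 8.54 CPM in myrAKT. It rose by 0.41 in KO (adjusted p = 1.66e-06 by edgeR) and by 0.37 in myrAKT (adjusted p = 0.000106), and its log2 fold change after MK2206 was 0.03 (SE 0.032, adjusted p = 0.554). Of 14 genes for nucleotide supply, 7 were higher and 1 lower in KO, 2 and 1 in myrAKT, and 1 and 3 after MK2206. Of 54 genes of the G2 and mitosis list in the Seurat package, none of which is among the replication genes, 25 were higher and 0 lower in KO, 19 and 4 in myrAKT, and 2 and 9 after MK2206. The part of these lists in the values of the replication genes was not tested.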

How the data were processed

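Libraries were prepared from total RNA freed of ribosomal RNA, pooled once and read from both ends in 2 runs. The authors trimmed reads with Trim Galore, checked them with FastQC and MultiQC, aligned them to hg38 with HISAT2 and deposited raw counts per Ensembl gene from featureCounts; their versions, the annotation, the strand setting and the handling of reads that touch several genes are not given in the sources used here. Samples were grouped by their labels.

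Symbols, positions and exon overlaps came from GENCODE release 44. Genes that reached 1 CPM in 3 or more libraries were normalized by TMM and tested with edgeR 4.0.16 (quasi-likelihood, two-sided, Benjamini-Hochberg over all 15587 genes) in R 4.3.3, with only the libraries of each comparison in the fit and no covariates. A gene was called at an adjusted p of at most 0.001. The 54 genes, their roles, the lists and the tests were chosen with earlier results of these data known. By rule, per-library values are given for the 3 largest called rises and falls in KO, myrAKT and MK2206 and for called genes against their role, and group means for the MCM ring, loaders, PCNA and RNase H2; ORC2, ORC3, MCM6, GINS4 in the lines, and ORC6 in KO2 were added after their values were seen. Libraries ranged from 23419198 to 39319910 counts, and replicates differed by more than counting error (mean chi-square per gene of 2.26 to 11.6). Fits of KO against WT, myrAKT against WT and MK2206 in KO were run on counts simulated with known changes and no line effect. The recovery of those changes is not reported here. Alternatives were DESeq2 1.42.0, RLE, upper-quartile and total scaling, other filters and thresholds, all libraries in 1 fit, a line term, a replicate block and leaving out each library. Tables and figures used Python 3.11.15, pandas 2.3.3, numpy 2.4.6 and matplotlib 3.10.9.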

Additional observations from a re-analysis of the deposited data

Results flagged for a closer look

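RNA levels differed between KO1 and KO2 in 5 of the 54 replication genes by edgeR's test at an adjusted p of at most 0.001. Of all genes, 12.6% differed. The lines are separately made pools, and whether these differences come from the knockout was not tested. The log2 difference, KO1 minus KO2, was -0.36 for GINS4, -0.28 for ORC6, -0.23 for GINS2, -0.22 for CDT1 and -0.18 for POLA1. GINS4, ORC6, GINS2 and CDT1 were also higher in myrAKT than in WT by 0.94 to 1.42 on the log2 scale, and POLA1 by 0.33. The number of genes that differ was 7 by DESeq2, where 7.5% of all genes were higher and 6.43% lower in KO1. It was 8 with a replicate block (9.24% and 7.79%) and 2 with all 18 libraries in 1 fit (5.94% and 3.59%).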

How the results depend on the processing

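Most results in the knockouts held: for KO against WT, KO1 against WT and KO2 against WT the count of called replication genes lay between 44 and 49 under every other scaling, filter, tool or fit and with any 1 library left out, and fell to 20, 21 and 22 with a minimum fold change of 1.5. That minimum left 6 genes for myrAKT against WT, 7 for KO against myrAKT, 15 for KO+MK against WT and 0 for KO1 against KO2, for MK2206 in KO and in either line. An adjusted p of 0.05 gave 33 for MK2206 in KO, 31 for MK2206 in KO1, 35 for MK2206 in KO2, 14 for KO1 against KO2 and 42 for KO against myrAKT, where the shares of all genes called higher and lower were 25.1% and 22.2%, 23.6% and 21.6%, 24.5% and 22.1%, 18% and 16.2%, and 32.3% and 30.4%. MK2206 in KO gave 27 with all 18 libraries in 1 fit, where 18.2% of all genes were higher and 19% lower. With the line as a term it also gave 27 (19.9% and 16.7%). MK2206 in KO1 gave 20 without a filter (5.39% and 5.97%). KO1 against KO2 gave 2 with all libraries in 1 fit (5.94% and 3.59%). Replicate numbers did not pair the libraries: deviations of same-numbered libraries correlated at -0.52 to 0.30 in the 15 pairs of groups, no pair had all 3 values above 0.1, and in 28 of 90 cases the closest library had the same number. A replicate block gave 10 for MK2206 in KO, where 10.4% of all genes were higher and 6.5% lower. For KO1 against KO2 it gave 8 (9.24% and 7.79%). With 1 library left out the count was 10 to 18 for MK2206 in KO, 4 to 19 for MK2206 in KO1, 5 to 22 for MK2206 in KO2, 3 to 6 for KO1 against KO2, 16 to 26 for KO against myrAKT, 26 to 34 for myrAKT against WT and 28 to 38 for KO+MK against WT. Where the cause of a moved count is not plain from fewer libraries or a stricter threshold, the cause was not tested. Single genes were followed through the alternatives for KO against WT, myrAKT against WT and MK2206 in KO, and those that changed sign were near 0 and not called. For KO1 against KO2 without a filter the median log2 difference of the 54 genes turned from -0.01 to 0.03, with 1 gene called higher and 3 lower. In myrAKT against WT without a filter these were POLD3 (-0.0108), RPA3 (-0.0268), ORC4 (-0.0015) and FEN1 (-0.0170). For MK2206 in KO they were DNA2, at -0.0209 with upper-quartile factors, -0.0188 without a filter and -0.0077 with all libraries in 1 fit, and POLE3, at 0.0093 with library totals. With 1 library left out the log2 fold change ranged from -0.0569 to 0.0618 for FEN1, -0.0388 to 0.0437 for RPA3, -0.0340 to 0.0455 for POLD3 and -0.0072 to 0.067 for ORC4 in myrAKT, and from -0.0100 to 0.0484 for DNA2 and -0.0291 to 0.0147 for POLE3 under MK2206. Upper-quartile factors moved the split for MK2206 in KO2 to 1 higher and 16 lower, and that of all genes for MK2206 in KO from 12.8% higher and 8.75% lower to 10.9% and 11.6%. Low-count genes such as POLD4, with 102 to 161 counts per library outside WT and myrAKT, are measured least precisely.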
